A study of Mus musculus with 62 samples.

Results

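The genes described here are the collagen and laminin chain genes, chosen by symbol alone: Col followed by a type number and an alpha chain number, or Lama, Lamb or Lamc followed by a number. The rule found 55 genes, 44 of collagen chains and 11 of laminin chains, of 53975 gene identifiers in the tables of long-RNA sequencing. Each level is a TPM value, a share of all transcripts corrected for transcript length, so levels of different genes can be set side by side. Within the cell line or within the hippocampus the TPM were scaled by the median of ratios and are called scaled TPM. Where the cell line is set beside tissue, all 31 libraries were scaled together and the values are called jointly scaled TPM.

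The cells were HT-22, a mouse hippocampal neuronal line, in 4 groups. They had received for 24 h either an anti-Hsf1 LNA, an antisense oligonucleotide of locked nucleic acid against the heat shock factor gene Hsf1, at 150 nM, or a scramble LNA that the labels put at 50 uM. They were then given the amyloid peptide Aβ42 or the reverse peptide 42-1, each at 30 uM. Scramble groups hold 4 libraries each and anti-Hsf1 groups 3 each. By the labels the LNA doses differ too, so dose and target cannot be told apart between anti-Hsf1 and scramble groups. The tissue was hippocampus, both hemispheres of a mouse pooled, from APP NL-G-F mice, which carry a mutated amyloid precursor gene as a knock-in, and from C57BL/6J wild type (WT) mice, at 3, 6 and 12 months of age. APP groups hold 3 mice at each age, and WT groups 2 mice at 3 months and 3 at 6 and at 12 months. HT-22 is a single line, and where its libraries are not stated to be separate cultures the p-values measure only the spread between libraries, which may be technical.

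Collagens are triple helices of alpha chains, some as homotrimers and others of up to 3 different chains, which are hydroxylated, trimmed outside the cell and crosslinked by lysyl oxidases. Laminins are crosses of an alpha, a beta and a gamma chain, and with the sheets of collagen IV they build basement membranes. In brain these membranes surround blood vessels and line the pia, fibrillar collagens are made mainly by meningeal and perivascular fibroblasts, and Col25a1 codes for a neuronal transmembrane collagen whose shed part is found in amyloid plaques.

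The library checks touch several results below. Relative depth, taken as the ratio of deposited coverage to FPKM, ran from 1.42 to 3.04 in hippocampus and from 0.724 to 2.6 in HT-22. The small RNA gene Gm23935 took 2.45 to 24.3% of the TPM in hippocampus and 5.37 to 44.3% in HT-22. Hsf1 was at 53.5 ± 7.92 scaled TPM (SD, n = 4) with the scramble and 47.8 ± 4.78 (SD, n = 3) with anti-Hsf1 under the reverse peptide, and at 61.4 ± 9.45 (SD, n = 4) and 46.9 ± 4.04 (SD, n = 3) under Aβ42. Neither difference passed (limma, adjusted p = 0.959 and 0.524), so the groups are called here the libraries labelled anti-Hsf1. The summed level of 8 neuron markers was 3.67 to 6.04 jointly scaled TPM in HT-22 against 2097 to 3512 in hippocampus, and Rbfox3, Snap25, Syt1 and Gad1 were listed at 0 in every HT-22 library, against the neuronal name of the line. In the mice, Xist was at 70.6 to 137 scaled TPM in every APP mouse and in WT mice of 3 months, and the Y-linked Ddx3y was at 18.4 to 28.0 in WT mice of 6 and 12 months. Sex and genotype therefore cannot be told apart at 6 and 12 months, in the mean over ages or in the interaction. None of 8 housekeeping genes was listed at 0 in any library (lowest 3.66 TPM).

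The stretches before the starts of 5 members are shown because these members are named in the results below, none of which uses the sequences. Col8a1 and Lamb1 stood high in the same 3 HT-22 libraries, and Col3a1 and Col4a5 hardly varied among HT-22 libraries. Col4a5 and Col4a6 start head to head on the X chromosome, 1308 bases apart. The sequences are RefSeq's for GRCm38.p6, 40 of the 55 members had an entry, and each is printed 5′ to 3′ on the gene's own strand and ends at the base before its start. Capitals mark matches, on either strand, to 5 motifs searched: TGANTCA (AP-1), GGAATG (TEAD), the CCAAT box, the GC box GGGCGG and the heat shock element core GAANNTTC, none of which overlapped another in these windows.
Col8a1: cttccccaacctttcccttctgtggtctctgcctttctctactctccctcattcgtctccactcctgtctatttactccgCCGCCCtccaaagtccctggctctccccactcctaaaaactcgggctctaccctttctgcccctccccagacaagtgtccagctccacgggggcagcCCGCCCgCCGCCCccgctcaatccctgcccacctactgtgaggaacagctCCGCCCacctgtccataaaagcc
Lamb1: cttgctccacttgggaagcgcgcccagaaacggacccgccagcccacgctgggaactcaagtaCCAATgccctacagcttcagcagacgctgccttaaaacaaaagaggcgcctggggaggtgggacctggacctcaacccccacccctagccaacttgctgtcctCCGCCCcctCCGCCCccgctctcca
Col3a1: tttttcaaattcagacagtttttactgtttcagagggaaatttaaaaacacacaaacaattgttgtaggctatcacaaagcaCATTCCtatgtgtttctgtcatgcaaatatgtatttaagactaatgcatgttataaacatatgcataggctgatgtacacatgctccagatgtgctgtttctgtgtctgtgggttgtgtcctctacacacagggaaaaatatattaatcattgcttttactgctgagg
Col4a5: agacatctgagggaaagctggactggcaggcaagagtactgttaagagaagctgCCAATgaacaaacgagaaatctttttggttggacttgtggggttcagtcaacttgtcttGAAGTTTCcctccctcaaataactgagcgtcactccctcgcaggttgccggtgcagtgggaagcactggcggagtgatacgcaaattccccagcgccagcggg
Col4a6: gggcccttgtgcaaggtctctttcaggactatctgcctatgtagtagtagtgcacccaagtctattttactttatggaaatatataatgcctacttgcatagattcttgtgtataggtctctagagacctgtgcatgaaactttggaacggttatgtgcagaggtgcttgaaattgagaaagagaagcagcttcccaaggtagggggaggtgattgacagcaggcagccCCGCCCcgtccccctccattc
Col8a1 (chr16:57754738-57754987, minus strand) held 4 GC boxes and was 60.8% G or C. Lamb1 (chr12:31265043-31265233, plus strand) held 2 GC boxes and 1 CCAAT in 191 bases, at 63.9%. Col3a1 (chr1:45311288-45311537, plus strand) was the poorest in G and C of the 5, at 35.2%, and held 1 GGAATG. Col4a5 (chrX:141475169-141475384, plus strand) held 1 CCAAT and 1 GAANNTTC in 216 bases, and Col4a6 (chrX:141474077-141474326, minus strand) held 1 GC box. TGANTCA was found in none of the 5. Of 32841 promoter windows of 250 bases in the table, 6.75% held TGANTCA, 12.6% GGAATG, 33.9% the CCAAT box, 32.7% the GC box and 6.7% GAANNTTC. In windows of 191 bases, the length shown for Lamb1, 26.9% held CCAAT and 23.1% the GC box, and in windows of 216 bases, that of Col4a5, 30.5% held CCAAT and 5.6% GAANNTTC. A match is a run of letters and was not tested as a binding site.

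In HT-22 cells the fibrillar collagens carried most of the signal. The 55 genes together took 0.242 to 0.686% of the TPM of an HT-22 library, and fibrillar chains made up 75.9 to 81.6% of their sum (jointly scaled TPM, median 77.1%, 14 libraries). Over all 14 libraries the highest means were Col1a2 at 1541 scaled TPM and Col1a1 at 843, the chains of collagen I, and Col3a1 at 480, the only chain of collagen III. Collagen V, which copolymerises with collagen I, followed with Col5a1 at 159 and Col5a2 at 126 scaled TPM. Collagen VI, which forms beaded filaments, had all 3 of its common chains: Col6a1 at 136, Col6a3 at 83.5 and Col6a2 at 74.4. Among the network collagens the X-linked pair Col4a5 and Col4a6, at 116 and 83.9 scaled TPM, stood above the common chains Col4a1 and Col4a2 in each of the 14 libraries. The FACIT collagen Col16a1, a type that sits on the surface of fibrils, had a mean of 66.8 scaled TPM.

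Laminin expression in HT-22 was mostly of beta and gamma chains. Lamc1, the gamma chain of most laminins, had a mean of 108 scaled TPM and Lamb2 66.9. The 5 alpha chains together reached only 0.04 to 0.285 jointly scaled TPM in a library, against 59.4 to 103 for the beta chains and 68.3 to 105 for the gamma chains. Lama1, Lama2 and Lama4 were listed at 0 in all 14 libraries, as were the collagens Col13a1, Col15a1, Col19a1, Col22a1, Col6a4 and Col6a5. These 9 were the members listed at 0 in every library of the line, and 0 members were so in all 17 hippocampus libraries.

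**Figure D1:**
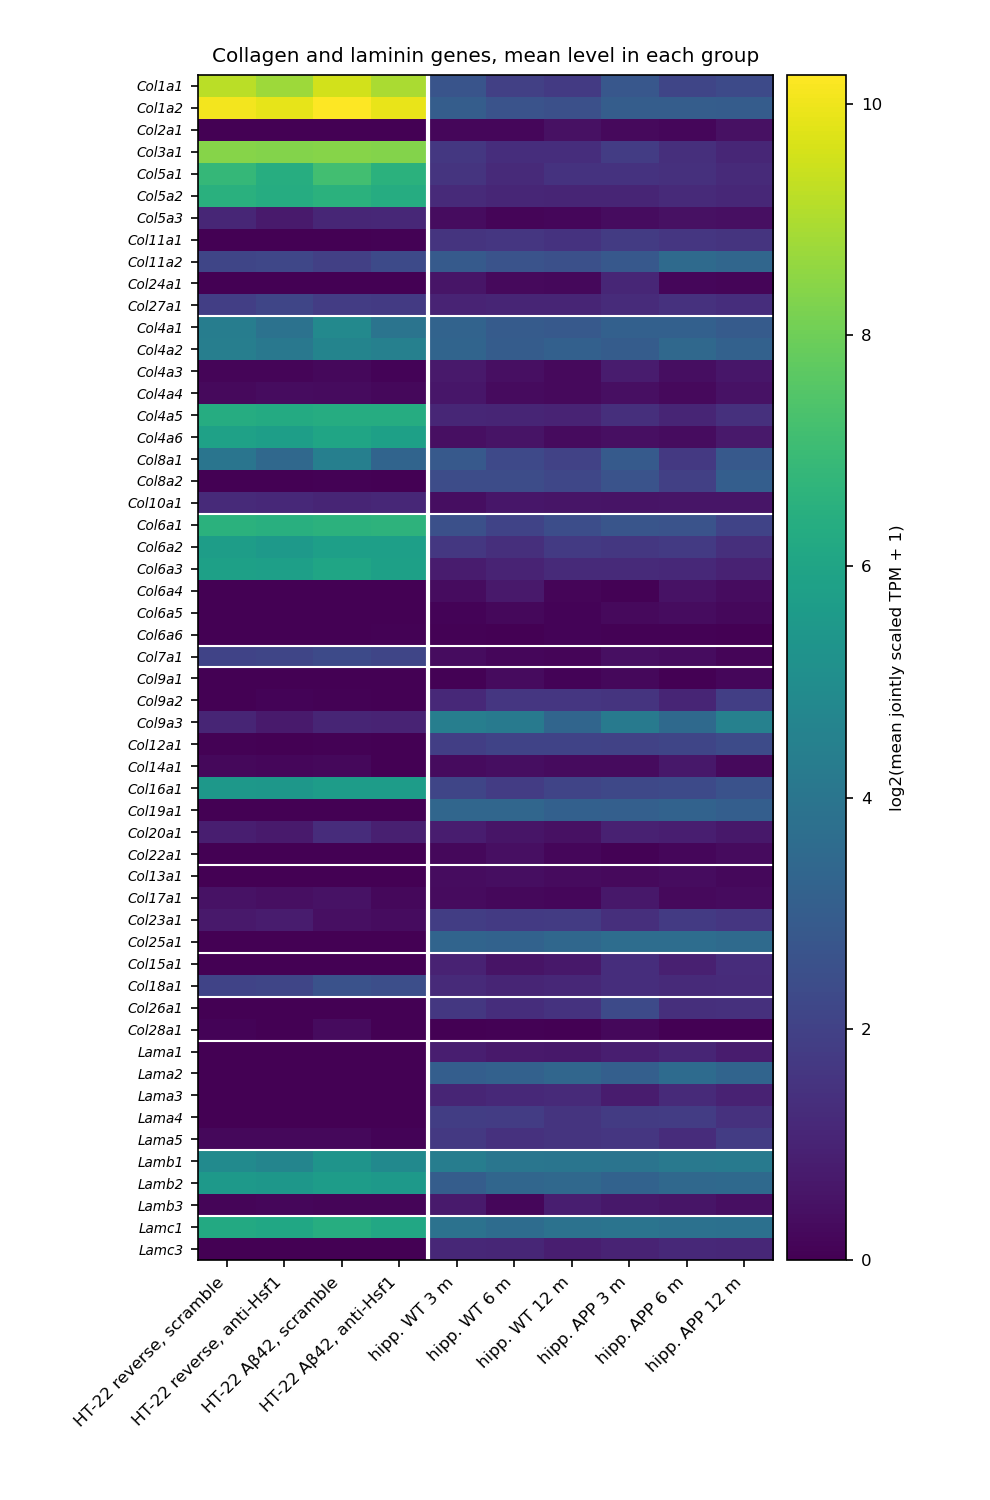
Heat map of the mean level of 54 of the genes, as log2(mean jointly scaled TPM + 1), in the 4 HT-22 groups (left of the thick line) and the 6 hippocampus groups, with genes ordered by structural class and white lines between classes. HT-22 columns are brightest at Col1a1, Col1a2 and Col3a1 and dark at the Lama genes. Among the Lama genes the hippocampus columns are brightest at Lama2.

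In hippocampus the same family was low and spread over many members. The 55 genes took 0.00825 to 0.0189% of the TPM, and FACIT chains made up a median of 20.1% of their sum, network chains 15.5%, beta laminins 15.5% and fibrillar chains 14.8% (jointly scaled TPM, 17 mice). The highest mean was Lamb1, the beta chain of most vascular laminins, at 12.1 scaled TPM, followed by the FACIT chain Col9a3 at 11.8 and Lamc1 at 9.75. Col25a1 was at 7.62, Lamb2 at 6.99, Lama2, the alpha chain of merosin, at 6.57, and Col19a1, a FACIT collagen known from hippocampal interneurons, at 6.18 scaled TPM. The main basement membrane chains Col4a2 and Col4a1 had means of 6.01 and 5.45, Col11a2 5.34, Col1a2 4.72 and Col8a1 3.45. Lamc1 varied least among the members above the filter, with a coefficient of variation of 16.2% over the 17 mice, and Col4a1 followed at 17.7% and Lamb1 at 18.6%. Col26a1 varied most, at 65.1%. Since the tissue is bulk, fewer cells of a type and less RNA per cell cannot be told apart.

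Alpha, beta and gamma laminin sums were of the same order in hippocampus: 11.4 to 18.1, 19.6 to 32.2 and 13.4 to 24.3 jointly scaled TPM. Lamb1 stood at a median of 1.25 times Lamc1 in the 17 mice (0.636 to 1.89) and at 0.381 times Lamc1 in the 14 HT-22 libraries (0.312 to 0.591), ranges that did not overlap. The ratio of Col1a1 to Col1a2, which code for chains that enter collagen I in unequal number, was similar in both: a median of 0.531 in HT-22 (0.438 to 0.689) and 0.553 in hippocampus (0.372 to 0.957).

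**Figure D2:**
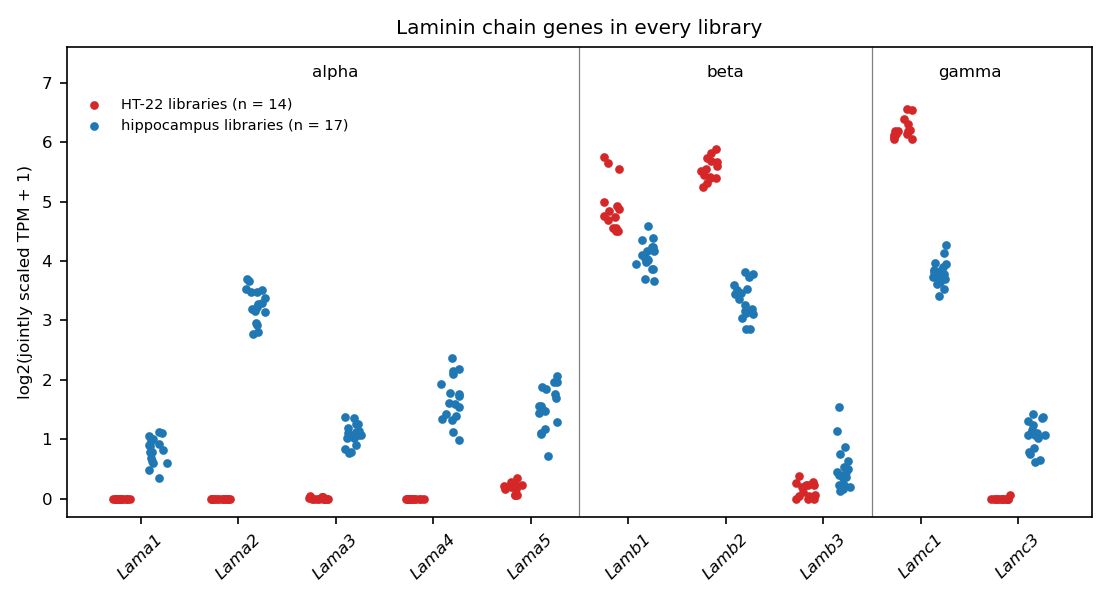
Levels of 10 laminin chain genes, as log2(jointly scaled TPM + 1), with each point a library (red, 14 HT-22; blue, 17 hippocampus). HT-22 points lie at or near 0 for all 5 alpha chains and above the hippocampus points for Lamb2 and Lamc1.

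HT-22 cells given the scramble and the reverse peptide were set against WT hippocampus over the 3 ages. This compares a cultured line with a tissue of many cell types, so line, culture, cell makeup and library preparation cannot be told apart. Of the 55 members 34 had a mean jointly scaled TPM of at least 1 over the 31 libraries, the filter for testing. Of these 34, 32 passed the test (limma, adjusted p below 0.05), 20 higher and 12 lower in HT-22. Among all 19517 genes tested, 77.8% passed, 32.1% higher and 45.8% lower. A member that passed the filter through HT-22 or through hippocampus alone had to differ, so the counts describe the list and support nothing further. Scaling moved this split: with TPM as deposited, or scaled by the sum of broadly expressed genes, 29 of 30 passed, 22 higher and 7 lower. The filter moved it too: without one, 45 of 55 passed, 22 higher and 23 lower, with a median log2 difference of -0.116 over the members, and at a minimum mean of 5, 19 of 20 passed, 17 higher and 2 lower. The median log2 difference of all tested genes was -0.211 as scaled here and 0.759 on TPM as deposited.

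The widest gaps were at the fibrillar chains. Col1a2 (chr6:4504814-4541544, GRCm38) was at 964, 866, 1045 and 1438 jointly scaled TPM in the 4 HT-22 libraries and at 3.3 to 7.49 in the 8 WT mice (median 5.28). That is 1078 ± 251 (SD, n = 4) against 5.44 ± 1.71 (SD, n = 8), a log2 difference of 7.37 (SE 0.221, adjusted p = 1.2e-20) on the scale of log2(jointly scaled TPM + 1), as are all log2 differences here. Col1a1 (chr11:94936224-94953042) was at 476, 405, 570 and 913 against 1.23 to 5.95 jointly scaled TPM (log2 difference 7.06, SE 0.245). The lowest HT-22 library thus lay far above the highest mouse for both chains of collagen I. Col3a1 (chr1:45311538-45349706) was at 358, 362, 327 and 311 against 0.699 to 3.05 jointly scaled TPM (log2 difference 7.01, SE 0.208). Collagen V showed the same with Col5a1 at 112 ± 38.6 against 1.69 ± 0.555 jointly scaled TPM (SD, n = 4 and 8) and log2 differences of 5.35 for Col5a1 and 5.36 for Col5a2. Of 8 fibrillar genes tested, 6 were higher, among them Col27a1, 1 was lower, Col11a1, and Col11a2 did not pass (adjusted p = 0.0706, or 0.0359 without reverse scramble replicate 1 and 0.0374 without replicate 3).

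Collagen IV split by gene pair. The X-linked Col4a5 was at 82.8, 70.6, 90.0 and 77.6 jointly scaled TPM in HT-22 and at 0.572 to 1.3 in WT mice (log2 difference 5.29, SE 0.115, adjusted p = 1.02e-23). Its head-to-head neighbour Col4a6 was at 56.8, 50.2, 56.8 and 63.7 against 0.0815 to 0.903 (log2 difference 5.45, SE 0.131). Both were above 50 jointly scaled TPM in every HT-22 library and at or below 1.3 in every WT mouse. The pair on chromosome 8 differed by less: Col4a1 was at 19.1 ± 10.1 against 7.02 ± 1.3 jointly scaled TPM and Col4a2 at 19.8 ± 3.96 against 7.79 ± 1.52 (SD, n = 4 and 8), with log2 differences of 1.20 and 1.22. The kit does not mark strand, and the Col4a1 and Col4a2 models share 22 bases at their starts, so reads there cannot be assigned. Col4a3 and Col4a4 did not reach the filter. Col8a1, a network chain of vessel walls, was higher in HT-22 (log2 difference 1.49, SE 0.34), and its partner chain Col8a2 lower (-2.21, SE 0.259). Without the 3 HT-22 scramble libraries set apart below, the difference was 0.896 for Col4a1 and 1.12 for both Col4a2 and Col8a1. Of those libraries, reverse scramble replicate 4 is in this contrast.

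The remaining collagens went both ways. Col6a1, Col6a2 and Col6a3 were higher in HT-22, with log2 differences of 4.23, 4.14 and 4.83, as were Col16a1 (3.49), the anchoring fibril chain Col7a1 (1.79) and Col18a1 (0.86), the precursor of endostatin. Lower in HT-22 were the FACIT chains Col9a2, Col9a3, Col12a1 and Col19a1, the transmembrane collagens Col23a1 and Col25a1, and Col26a1. Col25a1 was at 0.0145, 0, 0 and 0.0223 jointly scaled TPM in HT-22 and at 7.44 to 10.9 in WT mice (log2 difference -3.29, SE 0.123). Col19a1 was listed at 0 in the 4 HT-22 libraries and lay at 6.41 to 11.1 in the mice, so no fold is given. Col9a3 was at 0.712, 1.01, 1.05 and 1.48 against 4.2 to 22.3 jointly scaled TPM (log2 difference -2.90, SE 0.282).

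Lama2, Lama4 and Lama5 were lower in HT-22, and Lamb1, Lamb2 and Lamc1 higher. Lama2 and Lama4 were listed at 0 in the 4 libraries, against 5.85 to 11.9 and 1.17 to 4.15 jointly scaled TPM in WT mice. Lama5, a main alpha chain of vessel walls, was at 0.124, 0.142, 0.175 and 0.18 against 1.13 to 2.9 (log2 difference -1.33, SE 0.176). Lamc1 was at 68.7, 71.7, 72.3 and 83.1 against 9.58 to 16.6 jointly scaled TPM (log2 difference 2.45, SE 0.112), and Lamb2 at 45.5, 36.9, 57.8 and 41.7 against 6.23 to 13.1 (log2 difference 2.25, SE 0.154). Lamb1 was the exception in size: 21.7, 22.4, 22.6 and 49.1 against 13.5 to 23.1 jointly scaled TPM, with overlapping groups. Its log2 difference of 0.70 (SE 0.193, adjusted p = 0.00196) became 0.43 (adjusted p = 0.0268) without reverse scramble replicate 4.

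**Figure D3:**
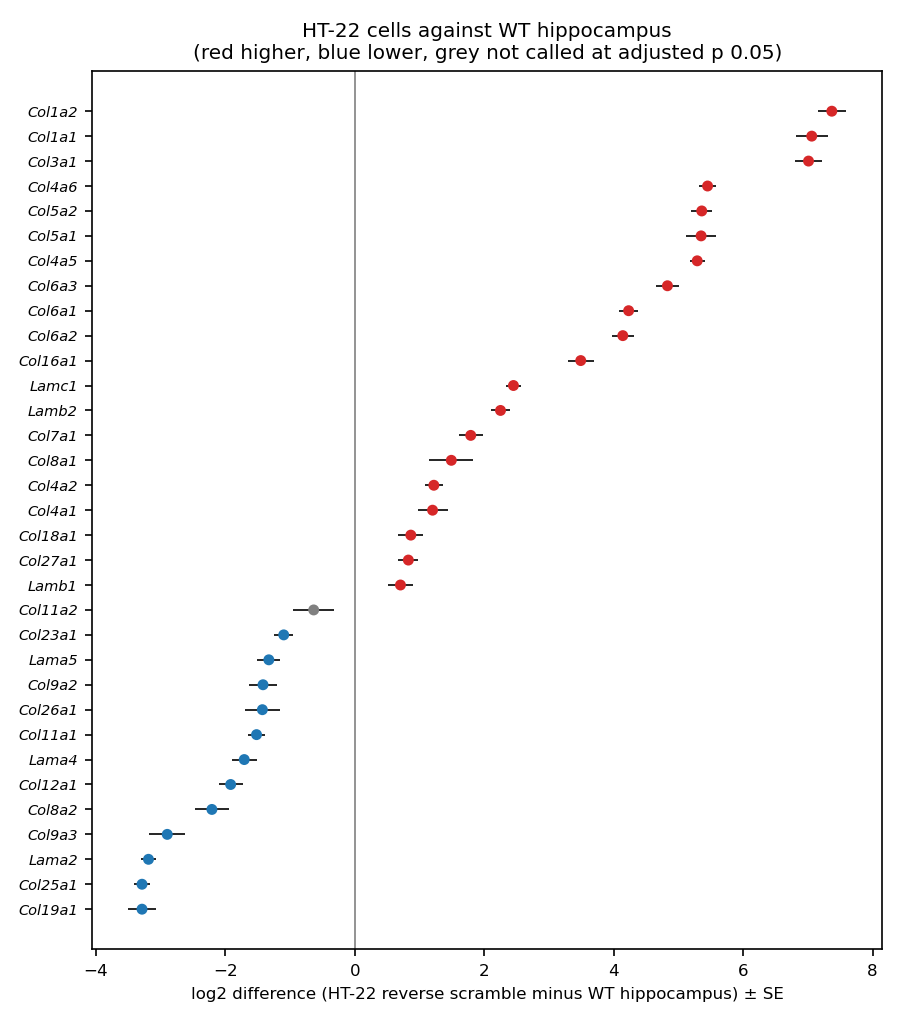
Log2 difference with its SE, on log2(jointly scaled TPM + 1), between HT-22 cells with reverse peptide and scramble (n = 4) and WT hippocampus (n = 8, averaged over 3 ages) for 33 of the members tested. Collagen I, III, V and IV alpha 5 and 6 genes lie above 5, and Col19a1, Col25a1 and Lama2 lie below -3.

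The pathway lists, named in the processing account, were read in the same contrast, where, as above, 77.8% of all genes passed, 32.1% higher and 45.8% lower. Of 27 tested genes for collagen biosynthesis and crosslinking, 22 were higher in HT-22 and 4 lower. Lox, a lysyl oxidase, was at 756 to 1172 jointly scaled TPM in the 14 HT-22 libraries and at 0 to 1.3 in the 17 mice (log2 difference 9.75), Serpinh1, the collagen chaperone Hsp47 and a known heat shock factor target, at 146 to 466 against 5.78 to 16 (4.78), and Pcolce, which enhances procollagen trimming, at 183 to 276 against 4.68 to 12.2 (4.72). Loxl1 was higher too (4.65), and Adamts3, a procollagen N-proteinase, was listed at 0 in HT-22 and lay at 6.59 to 9.55 in hippocampus. Of 18 other matrix genes 10 were higher and 7 lower, led by Sparcl1 (-9.41), a matricellular protein of astrocytes, Thbs1 (6.62), Fbln2 (5.19), Fn1 for fibronectin (5.09) and Nid1 (4.95), which links laminin to collagen IV. Of 12 receptor genes 5 were higher and 6 lower, among them the collagen receptor Ddr2 (3.64), Itgb1, the common beta chain of collagen and laminin integrins (2.66), the laminin integrin chain Itga7 (-2.92), Bcam (-2.17) and Adgrg1, a receptor for collagen III (-4.87). All 8 protease and inhibitor genes passed, 5 higher and 3 lower, with Mmp2 (5.29), Mmp14 (4.44), Timp1 (3.65), Timp4 (-4.08) and Mmp16 (-5.22) at the ends, the last listed at 0 in HT-22. Of 9 Tgf-beta and Yap genes 4 were higher and 3 lower: Ankrd1 (6.23), Tgfb3 (1.00), Tgfbi (-1.38) and Tgfb2 (-3.59) were among those with the widest differences. The summed level of 10 fibroblast markers was 191 to 244 jointly scaled TPM in HT-22 and 84.8 to 219 in hippocampus. Of the 9 tested, 2 were higher in HT-22, Aebp1 and Ogn, and 7 lower, with a median log2 difference of -2.86. Lum, Slc6a13 and Slc22a6 were listed at 0 in every HT-22 library, and their part in these differences was not tested.

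Within HT-22, 0 of the 26 tested members passed in any of the 5 contrasts (limma, adjusted p below 0.05), which bear on the response to Aβ42 and on whether it depends on Hsf1. Among all 17205 genes tested, the share that passed was 0.0% for Aβ42 against the reverse peptide with the scramble, 0.0% for the same with anti-Hsf1, 0.0% for anti-Hsf1 against the scramble under the reverse peptide, 0.0232% under Aβ42 and 0.0% for the interaction of peptide and LNA. At an unadjusted p under 0.05, the members were 0, 1, 0, 2 and 0 in that order, and 4.97%, 4.64%, 3.63%, 9.03% and 5.13% of all genes lay there.

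What the levels do show is a split among libraries of the same group. Col8a1 was at 13, 15.6, 15.1 and 42.7 scaled TPM in reverse scramble replicates 1 to 4 and at 13.9, 14.8, 42.9 and 45.1 in Aβ42 scramble replicates 1 to 4. It lay at 14.3, 15.5 and 14.5 in the reverse libraries labelled anti-Hsf1 and at 12, 12 and 14 in the Aβ42 ones. Thus 3 libraries, all with the scramble, were apart from the other 11, and both peptides were among them. Lamb1 was at 31.5, 32.5, 32.8 and 69.9 scaled TPM in reverse scramble, at 42.6, 39.9, 76.2 and 66.6 in Aβ42 scramble, at 36.2, 31.7 and 37.6 in reverse anti-Hsf1 and at 41, 37.9 and 44.5 in Aβ42 anti-Hsf1. Col4a1 was at 21.2, 17.6, 22.8 and 48.7, at 19.6, 25.2, 56.9 and 54.4, at 19.6, 19.8 and 19.1, and at 22.1, 19.3 and 21.4 scaled TPM in the same order of groups. The same 3 libraries held the 3 highest values of each gene. Col1a1 did likewise, at 691, 588, 828 and 1302 scaled TPM in reverse scramble and 694, 810, 1484 and 1354 in Aβ42 scramble, with 585 to 752 in the 6 libraries labelled anti-Hsf1.

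Counted over the 26 members, reverse scramble replicate 4 was the highest of its group for 14, and Aβ42 scramble replicates 3 and 4 were the top pair of theirs for 14. Both held for 12, among them Col1a1, Col1a2, Col4a1, Col4a2, Col4a6, Col5a1, Col5a2, Col8a1, Col20a1, Lamb1 and Lamc1. No share of all genes in these orders is given, and the 3 libraries were picked from these values. The counts thus describe the list and show nothing particular to it. Other members did not follow. Col3a1 was at 519, 526, 475 and 443 scaled TPM in reverse scramble and 422, 492, 500 and 499 in Aβ42 scramble, and varied least of the 26 over the 14 libraries, with a coefficient of variation of 6.47%. Col6a1 and Col4a5 came next at 6.56% and 6.72%, and Col8a1 and Col4a1 were among the most variable, at 61.9% and 50.9%. Genes paired in a molecule parted here: Col4a1 was 0.656 to 0.877 times Col4a2 in 11 libraries and 1.38, 1.33 and 1.47 times Col4a2 in the 3. The first of these is reverse scramble replicate 4, the others Aβ42 scramble replicates 3 and 4.

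**Figure D4:**
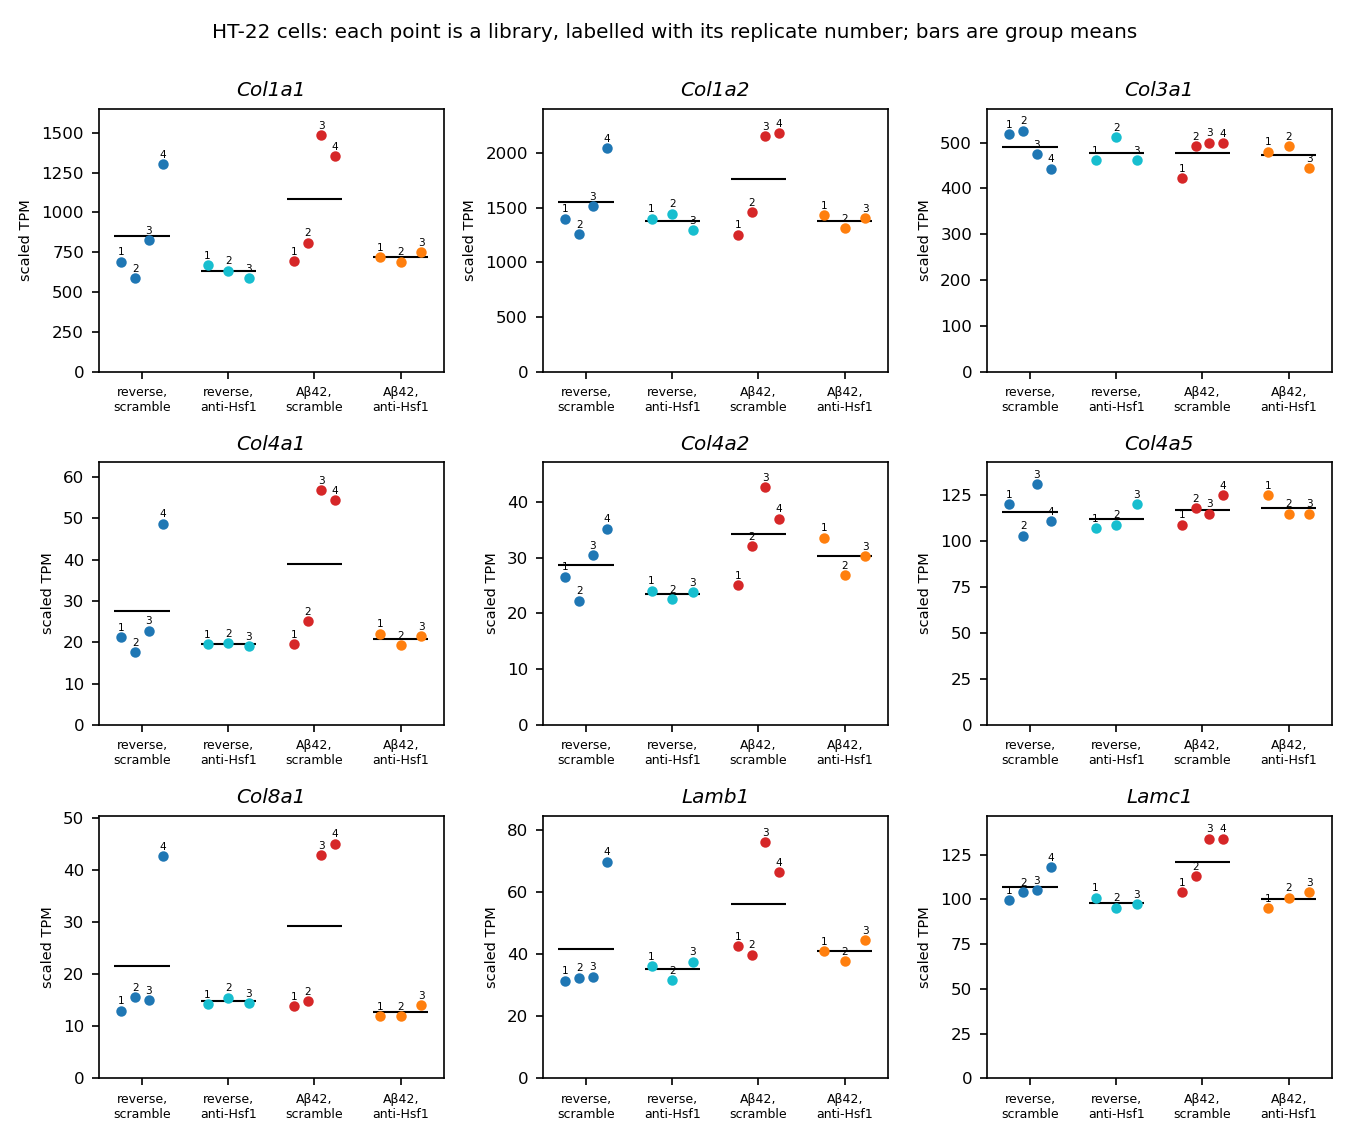
Scaled TPM of 9 members in the 14 HT-22 libraries, each point a library with its replicate number and each bar a group mean. Reverse scramble replicate 4 and Aβ42 scramble replicates 3 and 4 stand above the rest for Col1a1, Col4a1, Col8a1 and Lamb1 and not for Col3a1 or Col4a5.

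Some genes of the pathway lists, picked here for their values, moved with the split, and no share of all genes that did so is given. Thbs1, which codes for the matrix protein thrombospondin 1, was at 1925 scaled TPM in reverse scramble replicate 4, at 2588 and 2725 in Aβ42 scramble replicates 3 and 4, and at 161 to 218 in the other 11 libraries. Acta2, the smooth muscle actin gene, was at 45.3, 61.0 and 52.9 against 1.23 to 4.29, and the basement membrane gene Nid1 at 226, 225 and 236 against 95.0 to 114. Smad7, a feedback inhibitor of Tgf-beta signalling, was at 93.5, 78.5 and 85.3 against 6.38 to 11.5. Other genes of the lists did not follow, such as the matrix gene Agrn at 40.4, 48.5 and 44.0 against 38.1 to 52.8. Mia3, of the biosynthesis list, was at 122, 133 and 126 against 125 to 157. The part of any list gene in the split was not tested, and 0 genes of the 5 pathway lists passed in any contrast within HT-22. Relative depth was 2.599 in reverse scramble replicate 4 and 1.635 and 1.203 in Aβ42 scramble replicates 3 and 4. The first 2 were the highest of the 14 libraries, and the third was exceeded otherwise only by reverse scramble replicate 1 at 1.214. Depth thus ran with the split, and its part was not tested.

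Against this spread, Aβ42 with the scramble gave a median log2 difference of 0.168 over the 26 members (-0.2 to 0.61, 21 above 0), where all genes tested had a median near 0. Leaving out the 3 libraries, a choice made after seeing the data, brought it to 0.09, with 17 above 0. Col4a1 differed by 0.46 (SE 0.339), 0.12 without the 3, Col4a2 by 0.24, Col4a5 by 0.01 and Col4a6 by 0.17. Lamb1 differed by 0.46 (SE 0.252), 0.34 without the 3, Lamb2 by 0.15 and Lamc1 by 0.18. None of these passed (adjusted p of 0.953 to 0.996), and the smallest p was at Col18a1, at 4.25, 4.39, 2.49 and 7.15 scaled TPM in reverse scramble and 4.76, 8.08, 10.5 and 5.1 in Aβ42 scramble (log2 difference 0.55, SE 0.292, adjusted p = 0.953), groups that overlapped. In the libraries labelled anti-Hsf1 the same contrast had a median of 0.0919 (20 of 26 above 0), beside 0.000952 over all genes tested. Its smallest p was at Col6a2, at 77.9 ± 2.67 with Aβ42 against 64.9 ± 5.28 scaled TPM (SD, n = 3 each, adjusted p = 1.0).

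Under Aβ42 the libraries labelled anti-Hsf1 lay below the scramble for 20 of 26 members, and no share of all genes below 0 is given. The members' median log2 difference was -0.153, beside 0.00316 over all genes tested, and became 0.00402 without the 3 libraries. Lamc1 was at 104, 113, 134 and 134 scaled TPM with the scramble and at 95.3, 101 and 104 with anti-Hsf1 (log2 difference -0.27, SE 0.107, adjusted p = 0.528), and -0.117 without the 3. Col8a1 differed by -0.95 (adjusted p = 0.551), -0.171 without the 3, and these were the 2 members at an unadjusted p under 0.05. The collagen IV genes differed by -0.73 (Col4a1, -0.0879 without the 3), -0.15 (Col4a2), 0.02 (Col4a5) and -0.17 (Col4a6), and Lamb1 and Lamb2 by -0.39 and -0.14. On TPM as deposited 18 members passed, each lower with anti-Hsf1, while the median of all tested genes moved by -0.622 on that scale. Under the reverse peptide the median was -0.0973, or -0.0544 without the 3 libraries, with Col6a2 the member of smallest p (-0.20, adjusted p = 0.959). For the interaction it was Col5a3 (0.47, adjusted p = 0.999).

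In hippocampus, 0 of the 28 tested members passed in any genotype contrast (limma, adjusted p below 0.05), which ask how the family differs between genotypes at 3, 6 and 12 months. The share of all 17720 genes that passed was 0.299% at 3 months, 1.51% at 6 months, 0.451% at 12 months, 0.22% for the mean over ages and 0.451% for the interaction of genotype and age. At an unadjusted p under 0.05 the members were 0, 4, 4, 3 and 3 in that order, beside 13.3%, 16.9%, 6.95%, 12.2% and 15.9% of all genes. The members' median log2 differences were 0.0126, 0.0821 and 0.0544 at 3, 6 and 12 months, with 14, 17 and 17 of 28 above 0.

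Col25a1, the plaque collagen, was at 11.2, 8.59 and 6.26 scaled TPM in APP mice and 7.61 and 5.51 in WT mice at 3 months. At 6 months it was at 11.1, 6.76 and 8.1 against 5.95, 6.59 and 6.27, and at 12 months at 7.07, 8.04 and 8.56 against 6.06, 8.07 and 7.93. The groups overlapped at 3 and 12 months and not at 6 months, with no share of all genes without overlap to set beside this. Its log2 differences of 0.34 (SE 0.218), 0.38 (SE 0.195) and 0.10 (SE 0.195) did not pass (adjusted p = 0.555, 0.344 and 0.998), and over the 3 ages it was the member of smallest p (0.27, SE 0.117, adjusted p = 0.361). Leaving out 1 library gave 0.137 (without WT replicate 2) to 0.541 (without WT replicate 1) at 3 months, and 0.21 (without APP replicate 1) to 0.528 (without APP replicate 2) at 6 months. Summed thalamus markers lay beside these values: 552, 179 and 68.0 scaled TPM in APP mice at 3 months, against 46.5 and 59.9 in WT mice. At 6 months these sums were 169, 40.7 and 42.9 against 45.9, 49.4 and 51.9, and their part was not tested.

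Of collagen IV, Col4a1 and Col4a2 were tested in hippocampus, and neither passed in a genotype contrast. Col4a1 was at 5.88, 5.94 and 5.89 scaled TPM in APP mice against 7.15 and 5.59 at 3 months, at 5.31, 7.81 and 4.46 against 4.89, 6.17 and 4.09 at 6 months, and at 5.07, 5.27 and 4.81 against 4.94, 4.47 and 4.94 at 12 months. Its groups overlapped at every age. Col4a2 was at 4.47, 5.7 and 5.24 against 6.85 and 6.54 at 3 months and at 6.51, 8.76 and 6.8 against 5.86, 4.35 and 5.71 at 6 months. Neither pair of groups overlapped, with no share of all genes without overlap to set beside this. The log2 difference was -0.33 at 3 months, 0.41 at 6 months (SE 0.178, adjusted p = 0.264, the smallest p of that age) and 0.04 at 12 months. Col4a3 to Col4a6 and Lama1 were under the filter in hippocampus and were not tested there.

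Laminin chains gave small differences of both signs. At 3, 6 and 12 months the log2 differences were 0.03, 0.38 and -0.08 for Lama2, -0.41, 0.06 and 0.19 for Lamb1, and 0.05, 0.15 and -0.08 for Lamc1. They were -0.14, -0.0025 and -0.08 for Lama4 and -0.11, -0.17 and 0.26 for Lama5, the endothelial alpha chains, and 0.19, 0.05 and 0.04 for Lamb2. The smallest adjusted p among these 18 values was 0.352, for Lama2 at 6 months. There it was at 7.71, 8.67 and 7.72 scaled TPM in APP mice and 6.01, 7.82 and 4.36 in WT mice, groups that overlapped.

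The members with the smallest p at 12 months were Col9a3, Col8a1, Col8a2 and Col11a2. Col9a3 was at 19.1, 12.1 and 17.3 scaled TPM in APP mice and 3.17, 9.22 and 8.5 in WT mice (log2 difference 1.19, SE 0.429, adjusted p = 0.478). Col8a1 was at 4.04, 4.76 and 5.4 against 0.917, 3.39 and 2.62 (0.87), and Col8a2 at 5.05, 5.49 and 5.87 against 0.885, 4.43 and 2.78 (0.94). None of these 3 overlapped between genotypes, but they were picked by their small p, and no share of all genes without overlap is given. At 6 months APP mice lay lower or overlapped with WT mice, with Col9a3 at 8.99, 2.32 and 11.9 in APP and 11.8, 12.4 and 15.3 in WT mice, and Col8a1 at 2.33, 0.668 and 2.05 against 2.72, 3.12 and 2.95. The summed choroid plexus markers lay beside these values: 2088, 2139 and 1894 scaled TPM in APP and 600, 1693 and 1295 in WT mice at 12 months, and 1203, 110 and 831 against 1440, 1750 and 1715 at 6 months. The mouse with the lowest sum, APP 6 months replicate 2, had the lowest Col9a3, Col8a1 and Col8a2. The mouse with the highest sum, 3244 in APP 3 months replicate 1, had the highest Col8a1 and Col8a2. For Col9a3, the value of 19.1 in APP 12 months replicate 1 stood beside a sum of 2088. All 10 markers were found in hippocampus, none at 0 in every library, and their part was not tested. Col11a2 was at 10.3, 4.23 and 6.86 against 3.45, 2.48 and 4.78 at 12 months (log2 difference 0.79, adjusted p = 0.686) and at 5.47, 12.6 and 5.72 against 5.08, 3.86 and 2.71 at 6 months (0.81, adjusted p = 0.269).

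**Figure D5:**
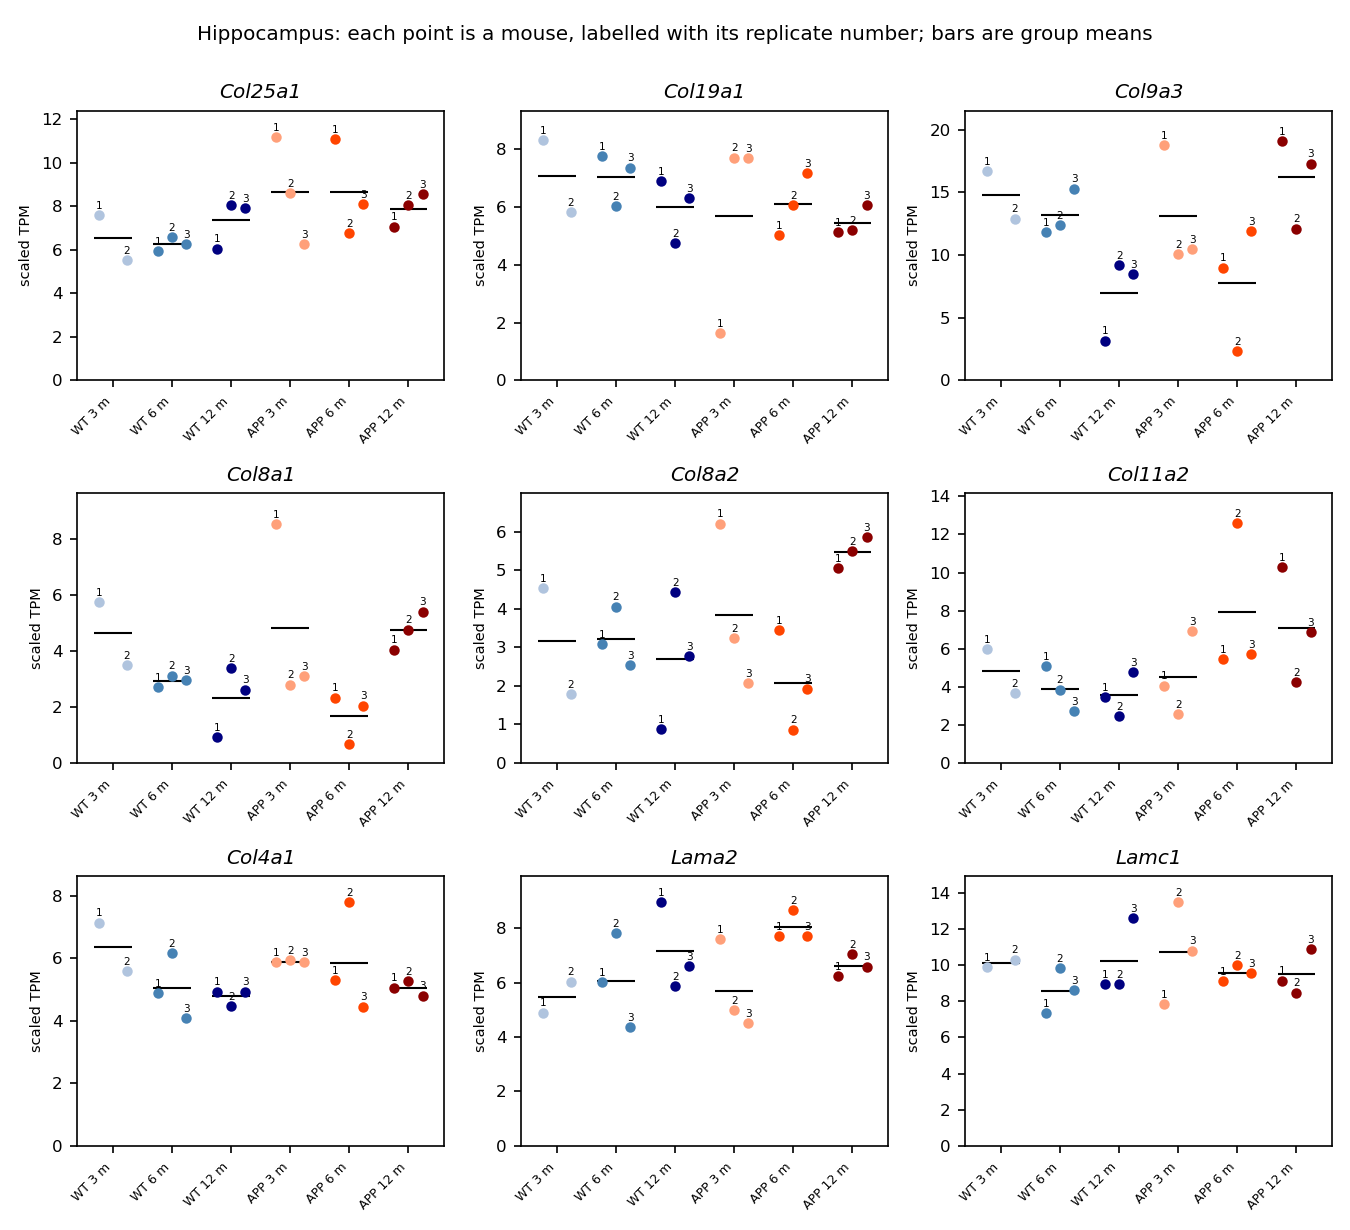
Scaled TPM of 9 members in the 17 mice, each point a mouse with its replicate number and each bar a group mean, by genotype and age in months. APP mice of 12 months lie above WT mice of that age for Col9a3, Col8a1 and Col8a2, while Lamc1 and Lama2 overlap.

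At 3 months, where the mice of both genotypes were Xist-high, the member of smallest p was the transmembrane collagen Col23a1, at 1.20 ± 0.346 in APP against 1.93 ± 0.0708 scaled TPM in WT (SD, n = 3 and 2, log2 difference -0.42, SE 0.215, adjusted p = 0.424). APP 3 months replicate 1 stood apart in its regional markers. Its thalamus marker sum was 552 scaled TPM against 40.7 to 179 in the other 16 mice, and its hippocampal neuron sum was 91.4 against 145 to 271. The next highest thalamus sums were 179 in APP 3 months replicate 2 and 169 in APP 6 months replicate 1. Every remaining mouse, and so every WT mouse, lay at or below 70.4. Col19a1 was at 1.63 scaled TPM in that mouse and at 4.75 to 8.32 in the other 16, and the part of the dissection was not tested. On TPM as deposited 13 members passed at 6 months, each higher in APP, where the median of all tested genes moved by 0.598.

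With age, too, 0 of 28 members passed. The share of all genes was 2.19% for APP mice at 6 against 3 months, 3.34% at 12 against 3 months, and 0.0% for WT mice at 12 against 6 months. At an unadjusted p under 0.05, 4, 1 and 1 members lay beside 18.7%, 16.5% and 6.77% of all genes. Col8a1 had the smallest p at 6 against 3 months (1.68 ± 0.89 against 4.81 ± 3.21 scaled TPM, SD, n = 3 each, log2 difference -1.05, adjusted p = 0.135). It ran from -1.28 without APP 3 months replicate 2 to -0.623 without APP 3 months replicate 1. At 12 against 3 months it was Col6a1 (2.40 ± 0.524 against 4.16 ± 0.426, log2 difference -0.61, adjusted p = 0.197), and in WT mice Col9a3 (log2 difference -0.93, adjusted p = 0.735), which ran from -1.16 without replicate 2 of 12 months to -0.516 without replicate 1 of that age. Col9a3 also had the smallest p for the interaction of genotype and age (adjusted p = 0.178).

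Around the chains, 0 genes of the 5 pathway lists passed in a genotype contrast, and a few passed with age in APP mice. Beside them 2.19% of all genes passed at 6 against 3 months and 3.34% at 12 against 3 months. The counts below thus only describe the lists. Smoc2, a calcium-binding basement membrane protein, rose from 3 to 6 months (log2 difference 1.44, adjusted p = 0.023) and to 12 months (1.31, adjusted p = 0.0246). It was at 1.36, 7.02 and 4.34 scaled TPM at 3 months, 10.2, 12.2 and 12.8 at 6 months and 10.8, 10.1 and 10.9 at 12 months, and the lowest of these was the mouse with the highest thalamus sum. In the matrix list this was 1 of 18 genes at 6 months and, with Tnc for tenascin C, which fell by 0.92 (adjusted p = 0.0318), 2 of 18 at 12 months. Of 12 receptor genes 2 fell at 6 months, Itgb1 by 0.46 and Itga6, a laminin receptor chain, by 0.56, and 1 rose at 12 months, the immune collagen receptor Lair1 (1.10, adjusted p = 0.0464). Of 8 protease and inhibitor genes 1 rose at 6 months, Timp4 (0.60), and of 7 Tgf-beta and Yap genes 2 rose at 12 months, Tgfb1 (0.91) and Tgfb2 (0.87). Of 23 biosynthesis genes 0 passed. Cell markers moved with age too. From 3 to 6 months, 7 of 8 oligodendrocyte markers fell (median log2 difference of the 8, -1.12) and 2 of 7 hippocampal neuron markers rose (median 0.952), beside medians of -1.17 for 7 striatum markers, 1 of which fell, and -1.5 for 6 thalamus markers, none of which passed. Of the microglial markers 5 of 8 rose from 3 to 12 months, Cst7 by 4.46 on the log2 scale, and 5 of 8 oligodendrocyte markers fell, and their part was not tested. The APP mice of 3 months, used in all these age contrasts, include replicates 1 and 2 with thalamus sums of 552 and 179 scaled TPM.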

How the data were processed

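Long-RNA libraries (rRNA-depleted total RNA, a kit without strand marking) from 14 HT-22 samples and 17 hippocampi were used, and 31 short-RNA libraries of the series, which hold counts of B2 elements, were not. The submitters' processing notes name FastQC, cutadapt 1.18, BWA 0.7.17, HISAT2 2.1.0, bedtools 2.26.0, StringTie 1.3.4d and GRCm38, with no role for each. The authors' deposited tables give TPM, FPKM and coverage per gene, per the file headers. TPM summed to 999823 to 999917 a library, was summed per gene identifier and keeps no depth. Deposited FPKM and coverage served only for relative depth.

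TPM was divided by median-of-ratios factors, within the cell line or hippocampus and, for the contrast of the line with tissue, over all 31 libraries. Genes with a mean of at least 1 were tested on log2(value + 1), a scale that understates changes of low genes, with limma 3.58.1 (R 4.3.3, trend and robust), 1 fit per system over all its groups, and Benjamini-Hochberg adjustment over all tested genes at 0.05. The fit was also run on simulated data whose noise was drawn separately for each gene and library. Such data hold no split among libraries, so that run does not bear on one. Replicate numbers were not used as a block.

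Members, gene lists and tests were chosen with earlier results of these data known. Named are the 12 members of highest mean per system, members that passed (the 15 with the widest difference), the member of smallest p where none passed, Col25a1, the collagen IV and main laminin chains, members listed at 0, and passing list genes (5 of the widest difference per list). Others named for their spread or overlap were picked after their values were seen. The lists cover collagen biosynthesis and crosslinking, other basement membrane and matrix proteins, collagen and laminin receptors, matrix proteases and inhibitors, and Tgf-beta and Yap target genes, beside cell type markers. Member coordinates in the files equal those of GENCODE for GRCm38. For 16 members 0.174 to 6.27% of exon bases overlap another gene, where reads cannot be assigned without strand. Some genes are not reported here by name.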

Additional observations from a re-analysis of the deposited data

Results flagged for a closer look

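Dixon's test picked out 8 of 52 groups of 4 HT-22 libraries in which the highest or lowest library lay far from the others, and chance gives about 1 in 20. The 52 tests reuse the same 8 libraries, so they are not independent. Over all 17205 genes above the filter the same limit was passed in 9.78% of tests for reverse scramble and 4.8% for Aβ42 scramble. Reverse scramble replicate 4 was the high library for Col20a1 (2.46 scaled TPM, the others 0.755 to 0.82), Col4a1 (48.7, the others 17.6 to 22.8), Col8a1 (42.7, the others 13.0 to 15.6) and Lamb1 (69.9, the others 31.5 to 32.8). Aβ42 scramble replicate 3 was high for Col27a1 (4.83, the others 3.13 to 3.37). The lowest library stood apart for 3 genes: Aβ42 scramble replicate 1 for Col3a1 (422, the others 492 to 500) and for Col5a3 (0.946, the others 1.87 to 1.92), and reverse scramble replicate 2 for Col6a3 (70.5, the others 82.6 to 84.1).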

How the results depend on the processing

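The count of 0 members within HT-22 and within hippocampus held in every contrast under a pseudocount of 0.1, a minimum mean of 5 and leaving out any 1 library, and in fits of the compared groups alone, which were run for contrasts between 2 groups and not for the mean over ages or the interactions. On TPM as deposited, members passed in APP against WT at 6 months (13), APP 6 against 3 months (1), genotype by age (6), Aβ42 against reverse with anti-Hsf1 (7), anti-Hsf1 against scramble under Aβ42 (18) and the peptide by LNA interaction (10), and all-gene medians moved by up to -0.676 on that scale. Without the filter, 1 member passed in APP 6 against 3 months and 1 in APP 12 against 3 months. For HT-22 against hippocampus, 19 members passed with a minimum mean of 5, where fewer were tested, 45 without the filter, and 31 to 33 when 1 library was left out. Without the 3 HT-22 scramble libraries, chosen after seeing the data, 32 passed there and 0 within HT-22.

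Differences whose sign turned had not passed, and the cause was not tested. On TPM as deposited these were Lama2 (-0.142) and Lamc1 (-0.134) at 3 months, Lama4 (0.445) and Lama5 (0.212) at 6 months, Lama2 (0.0438) and Lamc1 (0.047) at 12 months, Col6a2 in Aβ42 against reverse with anti-Hsf1 (-0.326) and Col4a5 in anti-Hsf1 against scramble under Aβ42 (-0.697, adjusted p = 0.00169). A pseudocount of 0.1 turned Lama4 at 6 months (0.0325). Without the 3 libraries Col4a5 was at -0.0491 in Aβ42 against reverse scramble, and Col4a2 (0.0851) and Col4a6 (0.0139) turned in anti-Hsf1 against scramble under Aβ42. When 1 library was left out, the ranges over 0 were: at 3 months Col4a1 -0.239 to 0.0677, Lama2 -0.166 to 0.156, Lama4 -0.363 to 0.182, Lama5 -0.336 to 0.0947, Lamc1 -0.121 to 0.236; at 6 months Col4a1 -0.0308 to 0.315, Lama4 -0.285 to 0.269, Lama5 -0.31 to 0.0858, Lamb1 -0.0354 to 0.227, Lamb2 -0.179 to 0.289; at 12 months Col25a1 -0.0221 to 0.163, Col4a2 -0.148 to 0.207, Lama2 -0.192 to 0.0736, Lama4 -0.179 to 0.00931, Lamc1 -0.173 to 0.0714, Lamb2 -0.119 to 0.213. Col4a5 ran from -0.0441 to 0.0716 in Aβ42 against reverse scramble and from -0.0219 to 0.0501 in anti-Hsf1 against scramble under Aβ42.

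The labels do not say that replicate numbers shared by groups pair the samples. In hippocampus same-numbered libraries correlated at -0.149 to 0.227 (mean 0.000528, other numbers -0.000245). In HT-22 they correlated at -0.217 to 0.576 (mean 0.0425, other numbers -0.0154). Such values from groups of 2 to 4 libraries cannot exclude pairing. With the replicate block 0 members passed in any contrast within a system, and Lamc1 at 3 months was at -0.00441. TPM keeps no depth, so counting error is unknown. Groups of 2 to 4 limit what a miss can show.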
